A study of Mus musculus with 6 samples.

Results

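The response of mouse endothelium to 1 week of tobacco smoke was measured in sorted cells, which were compared with sorted endothelial cells of control mice on 3 microarrays with 2 colours each. These are 3 of the 6 arrays of the series, chosen by their titles, and 1 of the 3 carries the label of a dye reversal. It is called 1-week replicate 1 here, and the arrays without that label are 1-week replicates 2 and 3. On all 3 arrays the labels give smoke-exposed cells for channel 1 and control cells for channel 2, with total RNA as the starting material. The labels give no strain, age, sex, dose of smoke, tissue of origin or sorting marker. They do not say whether the arrays came from separate animals or whether the dye reversal repeats the RNA of another array, so each p-value measures the spread between arrays, which may be technical. The other arrays set cells of mice exposed for 6 weeks against 1-week control (an array and its dye reversal) or against 6-week control (1 array), and they are used here for the estimate of spread and for values side by side.

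Endothelial cells line the inside of blood vessels, where they control permeability, clotting, vascular tone and the entry of leukocytes into tissue. Constituents of tobacco smoke reach them through the blood; aryl hydrocarbons act through the aryl hydrocarbon receptor and induce cytochrome P450 genes, while oxidants act through the factor NRF2 and induce antioxidant enzymes. Blood flow itself is sensed by these cells, and the transcription factors KLF2 and KLF4 are the best known regulators that respond to it.

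Each value is a log2 ratio of the channels for 1 spot, and the deposited table does not state its direction. Every title names smoke before control and smoke is in channel 1 throughout, so a positive ratio is read as likely higher after smoke, and "rose" and "fell" below carry that reservation. Nothing says whether the depositors had flipped the sign of the dye-reversed array. Its ratios were kept as deposited, and counts, list medians and means with that array turned are given for the main lists and the leading genes. Since only ratios were given, the level of a gene in either sample is unknown, and the identity of the sorted cells could not be checked by whether endothelial markers are present. Of the 13 defining endothelial markers listed for this purpose, 11 were measured, and their median log2 ratio was -0.05. The medians were -0.20 on the dye-reversed array, -0.08 on replicate 2 and -0.10 on replicate 3. Means ran from -0.68 (Cldn5) to 0.58 (Cdh5), with 3 markers positive and 4 negative on all 3 arrays. In RNA from many cells, fewer cells of a type and less RNA per cell cannot be told apart.

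The table held 11138 named genes, 10180 of them as 2 spots and the other 958 as more. Spots of 1 gene often disagreed. On the dye-reversed array 909 genes (8.16%) had spots that differed by at least 1 log2 unit, against 1735 (15.6%) on replicate 2 and 2214 (19.9%) on replicate 3. Counting over the arrays, 2823 genes had such a difference on 1 array, 788 on 2 and 153 on all 3. The remaining 7374 genes (66.2%) had agreeing spots on every array. The share of genes with 1 sign on all 3 arrays fell as the spots moved apart, from 41.8% where the largest spot difference was under 0.25 to 27.0% between 0.75 and 1 and 22.6% at 3 or more.

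**Figure D1:**
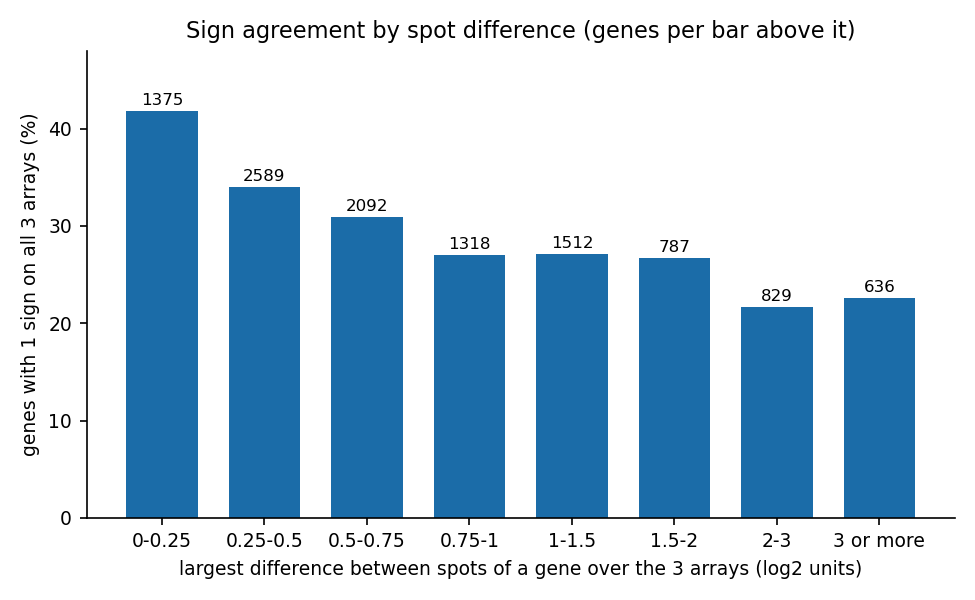
Bars give the percentage of named genes with the same sign of log2 ratio on all 3 1-week arrays, by the largest difference between spots of the gene on any of these arrays (log2 units); the number above a bar is its number of genes. The share falls from 41.8% in the leftmost bar to 22.6% in the rightmost.

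The arrays also differed in width. The middle 50% of all features spanned 0.478 log2 units on the dye-reversed array, 0.574 on replicate 2 and 0.667 on replicate 3. Across genes with agreeing spots, which are not independent replicates, the unreversed arrays correlated with each other at r = 0.331, and the dye-reversed array correlated with them at 0.151 (replicate 2) and 0.198 (replicate 3). All 3 correlations were lower among genes whose spots disagreed, at 0.0287, 0.00151 and 0.0187. As deposited, 2458 of the genes with agreeing spots (33.3%) had 1 sign on all 3 arrays, against 1951 (26.5%) when the dye-reversed array was turned. The gap was wider for large values, since 118 genes (70 positive, 48 negative) were past 0.58 one way on all 3 arrays as deposited and 24 (1 positive, 23 negative) with that array turned.

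Smoke was compared with control in a limma fit in which all 6 arrays share 1 estimate of spread per gene, with Benjamini-Hochberg adjustment and a threshold of 0.05. The 6-week part of that spread is the gap between the averaged dye-swapped pair and the array against 6-week control. It therefore also holds any difference between the 1-week and 6-week controls. Over all 19242 tests no feature passed (0%), while 1280 (6.65%) had an unadjusted p under 0.05, and the smallest adjusted p was 0.178. Over the 7374 genes with agreeing spots, 79 (1.07%) passed, 45 of them positive (0.61%) and 34 negative (0.461%), and 886 (12%) had an unadjusted p under 0.05. All 79 had 1 sign on all 3 arrays, 52 had a mean past 1 in size, and the means ran from -2.25 to 2.02. With the dye-reversed array turned, the means of the 79 ran from -0.83 (Rplp2) to 0.74 (Oxr1), and the mean as deposited was at least 1.59 times the turned one in size for each of them (median 3.03 times). Turning 1 array shrinks any mean whose arrays share a sign, so these ratios cannot tell which sign is right. Calls of single genes below come from this second fit, whose adjusted p-values are limma's. The gene lists below were chosen with earlier results of these data known. Shares of their members called are therefore descriptions, and an excess over the share of all genes was not tested.

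The 79 calls rest on the arrays kept and on the sign of the dye reversal. No gene passed with the dye-reversed array turned (361 at an unadjusted p under 0.05, smallest adjusted p 0.0632) or without replicate 3 (581 and 0.0555). Without the dye-reversed array 27 genes passed, 18 of them among the 79, and without replicate 2 there were 4, namely Rps18, Dynll1, Serinc1 and Coch. In a fit of the 3 1-week arrays alone 4 genes passed, Rps18, Rplp2, Col4a2 and Serinc1. With the dye-reversed array averaged into replicate 2, as if it were a technical repeat, 6 genes passed, and with it averaged into replicate 3 there was 1.

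**Figure D2:**
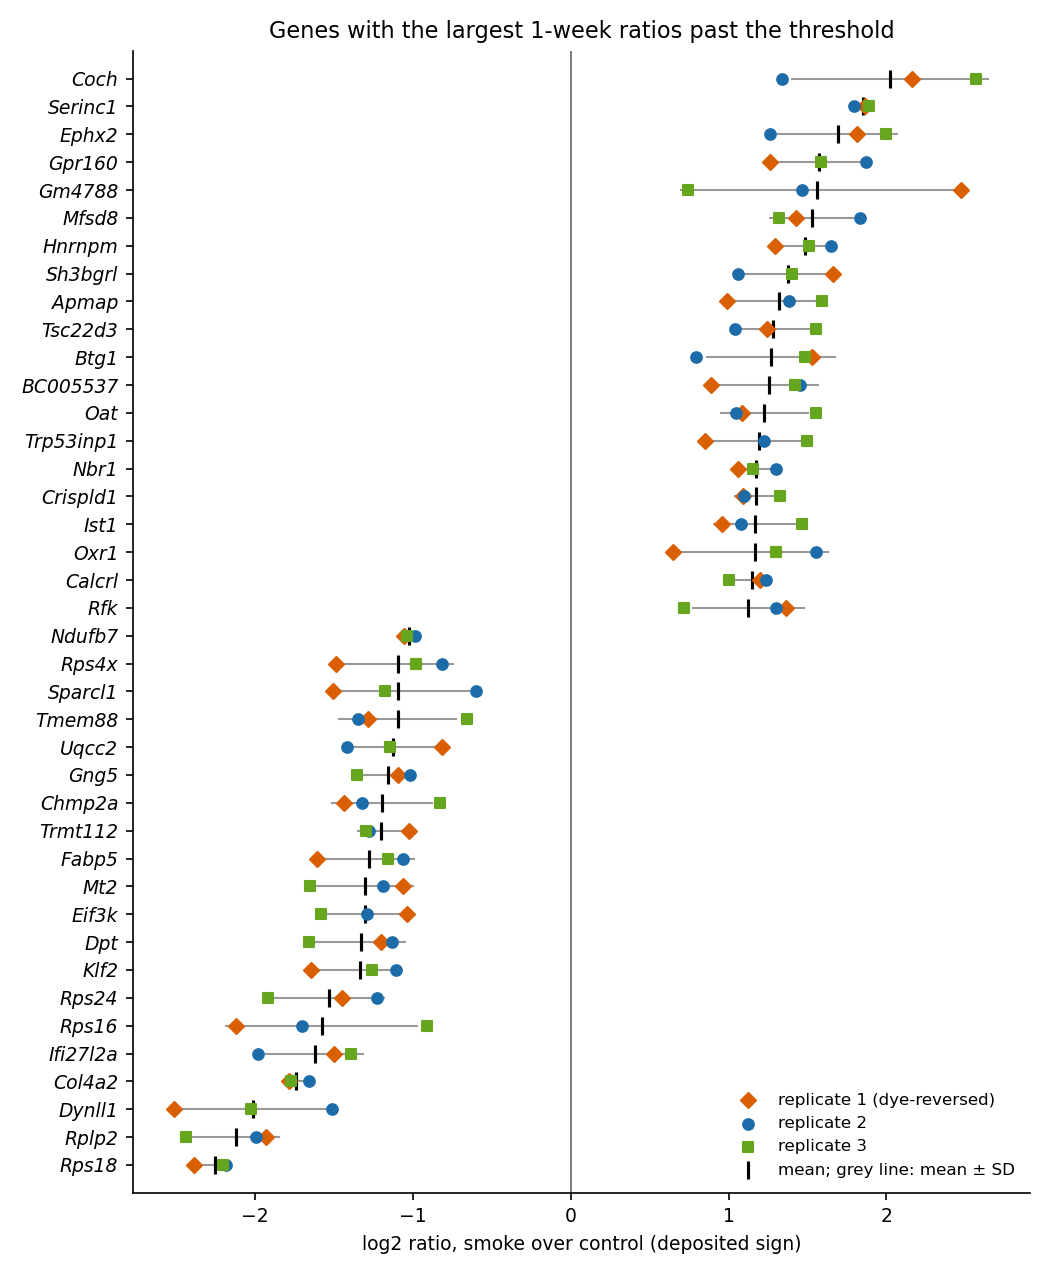
Log2 ratios of smoke over control (x axis, sign as deposited) of the 20 genes of each sign with the largest means among those past the threshold; points are the 3 arrays, the black tick is their mean and the grey line the mean ± SD. No point lies across 0 from its gene's mean, and Serinc1, Col4a2 and Ndufb7 have the tightest points in the plot.

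Ribosomal protein genes, which encode the structural proteins of the cytoplasmic ribosome, held the 2 lowest means, as deposited, of the 79 called genes. Of 67 measured members 51 had agreeing spots, and 9 of these fell and 0 rose past the threshold (17.6%, against 1.07% of all genes with agreeing spots). Among the 67, 39 were negative on all 3 arrays (58.2%, against 15.2% of all named genes) and 6 were positive on all 3 (8.96%, against 15.4%). The median over members was -0.41, against -0.01 over all named genes, and it was -0.38 on the dye-reversed array, -0.39 on replicate 2 and -0.43 on replicate 3. With the dye-reversed array turned it was -0.14, where 0 members passed. Because the array medians are so close, the unturned arrays set the sign of this value, so it is no check of the direction. Of the 9 falls, 3 (Rps18, Rplp2 and Rps24) passed without the dye-reversed array, 1 (Rps18) without replicate 2 and 0 without replicate 3. Ribosomal protein genes have many near-identical copies in the genome, and the table does not say what each spot carries, so a spot may measure more than 1 locus.

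Rps18, a protein of the small subunit, had the smallest p of all 19242 tests. Its log2 ratios were -2.38 on the dye-reversed array, -2.18 on replicate 2 and -2.20 on replicate 3, a mean of -2.25 ± 0.11 (SD, n = 3) or a 4.77-fold fall (limma adjusted p = 0.00232). All 3 arrays lay close together, and with the dye-reversed array turned the mean was -0.67. Rplp2, an acidic protein of the large subunit's stalk that contacts translation factors, had -1.93, -1.99 and -2.44, a mean of -2.12 ± 0.28 or a 4.35-fold fall (adjusted p = 0.00907), and -0.83 with the dye-reversed array turned. Its spots differed by 0.05 at most, so the spread lay between arrays and not between spots.

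The upstream sequence of these leading genes is printed because CCGGAA, the core of sites for ETS factors, is known from ribosomal protein promoters. Both windows are the 250 bases before the transcription start from RefSeq on build GRCm38.p6, read 5′ to 3′ on the gene's strand, with CCGGAA and its reverse complement in capitals. The Rps18 window is chr17:33955666-33955915 on the minus strand and the Rplp2 window is chr7:141447401-141447650 on the plus strand.
Rps18: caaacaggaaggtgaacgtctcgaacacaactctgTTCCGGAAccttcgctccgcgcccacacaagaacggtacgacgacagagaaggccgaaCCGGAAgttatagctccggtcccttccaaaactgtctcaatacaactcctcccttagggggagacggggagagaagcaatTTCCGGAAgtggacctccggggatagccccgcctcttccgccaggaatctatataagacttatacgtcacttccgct
Rplp2: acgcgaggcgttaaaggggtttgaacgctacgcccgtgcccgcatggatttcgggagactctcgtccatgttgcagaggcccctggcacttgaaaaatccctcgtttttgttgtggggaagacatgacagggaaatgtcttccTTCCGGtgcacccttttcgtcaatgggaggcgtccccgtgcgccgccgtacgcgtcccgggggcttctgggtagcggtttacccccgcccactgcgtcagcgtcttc
The Rps18 window holds 5 matches in 3 stretches, because the capitals TTCCGGAA read the same on both strands and count as overlapping matches, and the Rplp2 window holds 1. Of 67 measured ribosomal protein genes 56 had a window in the RefSeq table, and 37.5% of these held CCGGAA on either strand, against 18.3% of windows of genes with agreeing spots and 12.2% of all 27025 windows. Among called ribosomal protein genes 2 of the 8 with a window held it. A match is a description of these letters and says nothing of what binds there.

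The small subunit had 6 of the 9 falls. Rps16 had -2.12 on the dye-reversed array, -1.70 on replicate 2 and -0.91 on replicate 3 (mean -1.58 ± 0.61, adjusted p = 0.0315), the widest spread of the 9. Rps24 had -1.45, -1.23 and -1.92 (mean -1.53 ± 0.35, adjusted p = 0.0163). Rps4x, Rps15 and Rps13 had means of -1.09, -1.003 and -0.95, with adjusted p-values of 0.0396 each. The members' median was -0.52 for the small subunit (25 measured) and -0.36 for the large (42 measured), and the difference between the subunits was not tested.

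Beside Rplp2, the large subunit's falls were Rpl29 (mean -1.02 ± 0.17, adjusted p = 0.0315) and Rpl37a (-0.86 ± 0.12, adjusted p = 0.044). Rpl13a, with -1.27, -0.86 and -0.77, missed the threshold at an adjusted p of 0.0545. Not all members were negative. Rpl8, the highest member and one picked after its values were seen, had 0.72, 0.70 and 0.79 (mean 0.74, adjusted p = 0.058). Rpl26 had -1.46 and -1.97 on the unreversed arrays and -0.89 on the dye-reversed one, where its spots read -1.78 and 0.00, so it was left out of the fit on agreeing spots.

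**Figure D3:**
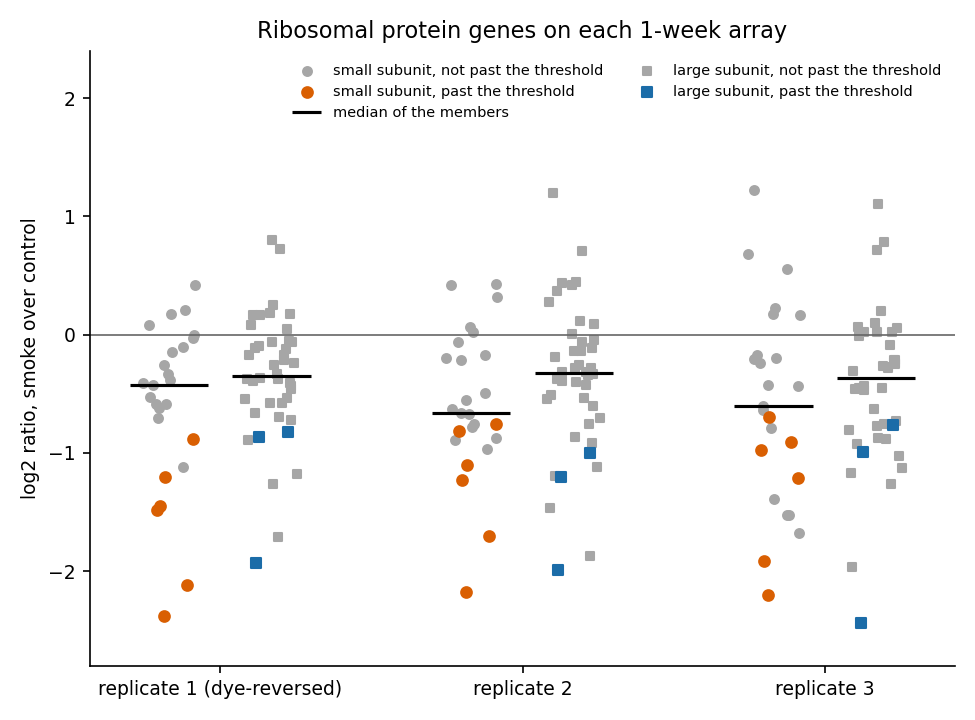
Log2 ratios (y axis) of the 67 measured ribosomal protein genes on each 1-week array; circles are the small subunit (25), squares the large (42), coloured points are the genes past the threshold and black bars the medians. Every median lies below 0, from -0.33 for the large subunit to -0.66 for the small subunit, both on replicate 2.

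Other parts of the translation machinery split. Of 36 measured genes on the initiation and elongation list 33 had agreeing spots. Of these 2 fell and 1 rose (9.09%, against 1.07% of all genes with agreeing spots). The median over the 36 was -0.03. Eif3k, a subunit of the initiation factor eIF3, had -1.04, -1.29 and -1.58 (mean -1.30 ± 0.27, adjusted p = 0.0163). Trmt112, which activates methyltransferases that modify ribosomal RNA, transfer RNA and a release factor, had a mean of -1.20 ± 0.15 (adjusted p = 0.0163). The list counts it although it is no initiation or elongation factor itself. In the other direction Eif4g2, an initiation factor used in translation that does not need the cap, had 0.74, 1.20 and 0.94 (mean 0.96 ± 0.23, adjusted p = 0.0417). The elongation factor gene Eef1b2 was negative on all 3 arrays with a mean of -0.73 and did not pass (adjusted p = 0.0673).

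The 67 measured mitochondrial ribosomal protein genes gave 0 calls among 41 with agreeing spots, beside 1.07% of all such genes. Their median was -0.08, with 20 negative and 7 positive on all 3 arrays (29.9% and 10.4%, against 15.2% and 15.4% of all named genes). Mrpl52 had a mean of -0.96 (adjusted p = 0.105) and Mrpl50 of 0.71 (adjusted p = 0.113), so the nearest members to the threshold pointed both ways. Of 65 measured respiratory chain and ATP synthase genes, which carry out oxidative phosphorylation, 31 were negative and 10 positive on all 3 arrays (47.7% and 15.4%), and the median was -0.19, with -0.20, -0.18 and -0.18 on the single arrays and -0.03 with the dye-reversed array turned. The difference between these lists was not tested.

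Single genes of the respiratory chain passed in both directions. The list held 1 fall and 1 rise among 48 members with agreeing spots (4.17%, against 1.07% of all genes with agreeing spots). Ndufb7, a subunit of complex I, had -1.06, -0.99 and -1.03 (mean -1.03 ± 0.04, adjusted p = 0.0315). Its spots differed by 0.98 on replicate 2, just inside the limit of 1 log2 unit, so the close agreement of the array means hides a wide spot gap there. Uqcrfs1, the Rieske iron-sulfur protein of complex III, had 0.95, 0.93 and 0.63 (mean 0.84 ± 0.18, adjusted p = 0.0477). Uqcc2, an assembly factor of complex III, fell with a mean of -1.12 ± 0.30 (adjusted p = 0.0315). Ndufs7, another complex I subunit, had a mean of -0.95 (adjusted p = 0.0641).

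Proteasome genes gave 1 fall and 0 rises among 30 members with agreeing spots (3.33%, against 1.07% of all genes with agreeing spots). Among the 39 measured, 14 were negative and 3 positive on all 3 arrays (35.9% and 7.69%, against 15.2% and 15.4% of all named genes). Their median was -0.20, and it became 0.05 with the dye-reversed array turned. Psmd6, a subunit of the regulatory particle, had -1.24, -0.86 and -0.86 (mean -0.99 ± 0.22, adjusted p = 0.0396). Psmd12, from the same particle, had a mean of -0.57 (adjusted p = 0.153), and Psma1, of the core, had 0.49 (adjusted p = 0.201).

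Genes of the basement membrane, the sheet of matrix on which endothelium rests, gave 3 falls and 0 rises among 22 members with agreeing spots (13.6%, against 1.07% of all genes with agreeing spots). Col4a2 and Col4a1 encode the chains that assemble into the common form of collagen IV. Col4a2 had -1.78 on the dye-reversed array, -1.66 on replicate 2 and -1.77 on replicate 3, a mean of -1.74 ± 0.07 or a 3.34-fold fall (adjusted p = 0.0101). With the dye-reversed array turned the means were -0.55 for Col4a2 and -0.46 for Col4a1. Col4a1 had -0.81, -0.85 and -1.36 (mean -1.004 ± 0.31, adjusted p = 0.0416). The arrays of Col4a2 did not overlap those of Col4a1, although the 2 spots of each gene differed by up to 0.57 and 0.62.

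Sparcl1, a secreted matrix glycoprotein, had -1.51, -0.60 and -1.17 (mean -1.09 ± 0.46, adjusted p = 0.044), the least even of the 3. The laminin gene Lamc1 was negative on all 3 arrays with a mean of -0.71 (adjusted p = 0.0882). Over the whole basement membrane list, 35 measured, the median was -0.05, so the falls were those of single members. On all 3 arrays 7 members were negative and 3 positive (20% and 8.57%, against 15.2% and 15.4% of all named genes). Of 52 measured interstitial collagen and fibroblast matrix genes 36 had agreeing spots. Of these 1 fell (2.78%, against 1.07% of all genes with agreeing spots). It was Dpt, which encodes dermatopontin, a matrix protein of connective tissue. Dpt had -1.20, -1.13 and -1.66 (mean -1.33 ± 0.29, adjusted p = 0.0315), and Pi16, a gene of adventitial fibroblasts, had -0.72, -0.56 and -1.20 (mean -0.83, adjusted p = 0.0728).

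Dpt is also a fibroblast marker, so the markers of other cell types are given beside these matrix genes. Of 21 measured markers of fibroblasts, smooth muscle and pericytes 17 had agreeing spots. Of these 1 fell (Dpt, 5.88%, against 1.07% of all genes with agreeing spots). Among the 21, 4 were negative on all 3 arrays and 4 positive on all 3, with a median of -0.01. Of 29 myeloid markers 23 had agreeing spots and 0 of these passed. Among the 29, 8 were negative and 1 positive on all 3 arrays (27.6% and 3.45%, against 15.2% and 15.4% of all named genes), with a median of -0.14. The complement gene C1qc had a mean of -0.56 (adjusted p = 0.251) and the lysozyme gene Lyz2 of -0.58 (adjusted p = 0.16). The marker medians were -0.09 for lymphocytes (23 measured) and -0.09 for lung and airway epithelium (17). They were -0.10 for erythroid cells and platelets (13) and -0.02 for adipocytes, muscle and liver (26). In that order, calls among members with agreeing spots were 0 of 16, 0 of 11, 0 of 11 and 1 of 18. Among the 17 lung and airway markers, 3 were negative and 1 positive on all 3 arrays (17.65% and 5.88%, against 15.2% and 15.4% of all named genes). The surfactant gene Sftpc, the highest of these markers, had 0.21, 0.14 and 0.70 (adjusted p = 0.46). The lowest was Cyp2f2, with a mean of -1.44 and disagreeing spots. The part of other cells in the results was not tested.

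The transcription factors that endothelium makes in response to flow moved in opposite directions. Klf2, which holds endothelium in a quiescent state that resists clotting and inflammation, had -1.64 on the dye-reversed array, -1.11 on replicate 2 and -1.26 on replicate 3, a mean of -1.34 ± 0.28 or a 2.52-fold fall (adjusted p = 0.0163). Klf4, its close relative, had 0.91, 0.87 and 0.70, a mean of 0.83 ± 0.11 or a 1.77-fold rise (adjusted p = 0.0475). Every called gene had 1 sign on all 3 arrays, so a called rise and a called fall cannot overlap. Klf4 did not pass with a dye term in the fit, with arrays scaled to one spread or with quantile normalization. Klf2 passed in each of these. With the dye-reversed array turned the means were -0.24 for Klf2 and 0.22 for Klf4, and neither passed. Without the dye-reversed array the adjusted p was 0.0554 for Klf2 and 0.156 for Klf4.

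The Klf2 upstream window is shown because MEF2 factors are known to drive this gene in endothelium. It is the 250 bases before the start, chr8:72318812-72319061 on the plus strand (RefSeq, GRCm38.p6), with matches to a form of the MEF2 site (CTA and TAG with any 4 bases between them, searched on both strands) in capitals.
Klf2: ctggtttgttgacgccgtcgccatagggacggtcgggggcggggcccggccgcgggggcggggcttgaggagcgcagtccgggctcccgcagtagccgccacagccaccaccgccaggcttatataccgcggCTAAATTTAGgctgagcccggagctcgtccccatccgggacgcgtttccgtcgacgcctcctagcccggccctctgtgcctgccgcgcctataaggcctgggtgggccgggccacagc
The window holds 1 match, as 3.23% of all windows in the table hold at least 1. Of 34 measured flow-responsive genes 23 had agreeing spots. Of these 1 rose and 1 fell (8.7%, against 1.07% of all genes with agreeing spots). The median over the 34 was -0.09. On all 3 arrays 5 members were positive and 8 negative (14.7% and 23.5%, against 15.4% and 15.2% of all named genes). The highest mean was 0.85, for Thbd, picked after its values were seen. Nos3, the endothelial nitric oxide synthase, had 0.19, -0.51 and -0.08, and its spots differed by 1.27 on replicate 2. Hmox1, heme oxygenase, had -0.58, -1.19 and -0.24 (mean -0.67, adjusted p = 0.188).

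Genes of endothelial identity split in the same even way. Of 62 measured 50 had agreeing spots, and 2 of these rose and 1 fell (6%, against 1.07% of all genes with agreeing spots). Among the 62, 18 were positive and 19 negative on all 3 arrays, and the median was 0.03. Calcrl, the receptor that binds adrenomedullin together with RAMP proteins, had 1.20, 1.24 and 1.004, a mean of 1.15 ± 0.13 or a 2.21-fold rise (adjusted p = 0.0178), and 0.35 with the dye-reversed array turned. Gata2, a transcription factor of endothelial and blood lineages, had 0.99, 0.73 and 0.91 (mean 0.87 ± 0.13, adjusted p = 0.04). Fabp5, a fatty acid binding protein of microvascular endothelium, had -1.61, -1.06 and -1.15 (mean -1.27 ± 0.29, adjusted p = 0.0186). Shares of 29.0% positive and 30.6% negative on all 3 arrays stand beside 15.4% and 15.2% over all named genes. Rasip1, needed for vessel lumens, and Egfl7, secreted by endothelium, were negative on all 3 arrays with means of -0.76 and -0.61 (adjusted p = 0.0887 and 0.146).

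On the list of TGF-beta, BMP, Notch and Wnt genes both calls were rises. Fzd4, the Norrin and Wnt receptor of retinal and other endothelium, had 0.92, 0.95 and 0.93 (mean 0.93 ± 0.02, adjusted p = 0.0396), the smallest SD among the 79 called genes. Id3, an inhibitor of basic helix-loop-helix factors and a target of bone morphogenetic proteins, had 1.39, 0.71 and 1.24 (mean 1.12 ± 0.36, adjusted p = 0.0396). The list had 81 measured members and a median of -0.02. The 2 calls were 3.45% of its 58 members with agreeing spots, against 1.07% of all such genes. Bmp4, a ligand of the same family, was positive on all 3 arrays with a mean of 0.76 (adjusted p = 0.0592). Hif1a, the oxygen-regulated transcription factor subunit, had 1.01, 0.92 and 0.79 (mean 0.91 ± 0.11, adjusted p = 0.0454), while Ldha, a glycolytic gene on the same hypoxia list, had a mean of -0.65 (adjusted p = 0.188). Hif1a was the only call among the 36 hypoxia and angiogenesis genes with agreeing spots (2.78%). Of the 50 measured, 4 were positive and 10 negative on all 3 arrays (8% and 20%, against 15.4% and 15.2% of all named genes).

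Ccn1, a matrix-associated protein induced within minutes of stimulation, had 1.09, 0.67 and 1.21 (mean 0.99 ± 0.28, adjusted p = 0.0396). Its relative Ccn2 had 0.62, 0.48 and 1.51 (mean 0.87, adjusted p = 0.115), high on replicate 3 alone. With Klf2 and Klf4 these belong to the immediate early list. Of its 41 measured members 33 had agreeing spots. Of these 2 rose and 1 fell (9.09%, against 1.07% of all genes with agreeing spots). The median over the 41 was -0.01.

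With signs as deposited, the largest positive mean past the threshold was that of Coch, which encodes cochlin, a secreted protein best known from the inner ear. Coch had 2.16 on the dye-reversed array, 1.34 on replicate 2 and 2.57 on replicate 3, a mean of 2.02 ± 0.63 or a 4.07-fold rise (adjusted p = 0.0141). Every array lay past 1, with replicate 2 the lowest. The mean of Coch was 0.58 with the dye-reversed array turned, below those of Oxr1 (0.74) and Gpr160 (0.73). Crispld1, another secreted protein with an LCCL domain, had 1.09, 1.10 and 1.33 (mean 1.17 ± 0.14, adjusted p = 0.0315). Ahsg, the serum protein fetuin-A of liver, had a mean of 0.94 ± 0.28 (adjusted p = 0.0416).

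Ephx2, the soluble epoxide hydrolase that breaks down epoxides of arachidonic acid made by endothelium, had 1.81, 1.26 and 1.996, a mean of 1.69 ± 0.38 or a 3.23-fold rise (adjusted p = 0.0204). Its spots differed by 0.32 at most, and its mean was 0.48 with the dye-reversed array turned. It was the only call on the list of xenobiotic oxidases and aldehyde dehydrogenases, which includes it although it is a hydrolase. Of 56 measured members 40 had agreeing spots (2.5% called, against 1.07% of all such genes). The median over the 56 was 0.03. Gm4788, a complement factor H-related gene, had the widest range of the called genes, with 2.47, 1.46 and 0.75 (mean 1.56 ± 0.87, adjusted p = 0.0481). It was highest on the dye-reversed array, and its mean became -0.09 with that array turned, which made it the only called gene to change sign.

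Genes of lysosomes, autophagy and membrane traffic passed in both directions. Serinc1, a serine incorporator of cell membranes, had 1.86, 1.79 and 1.89, a mean of 1.85 ± 0.05 or a 3.6-fold rise (adjusted p = 0.00417), and 0.61 with the dye-reversed array turned. Mfsd8, a lysosomal membrane transporter, had 1.42, 1.83 and 1.32 (mean 1.53 ± 0.27, adjusted p = 0.0103). Nbr1, a receptor for autophagic cargo, had 1.06, 1.30 and 1.16 (mean 1.17 ± 0.12, adjusted p = 0.0315). No array of these 3 genes was under 1. On the other side Chmp2a, a core subunit of the ESCRT-III machinery that cuts membrane necks, had -1.44, -1.32 and -0.83 (mean -1.19 ± 0.32, adjusted p = 0.044). The lysosome and autophagy list, which includes Serinc1, thus held 3 rises and 1 fall among 62 members with agreeing spots. These were 6.45% of the 62, against 1.07% of all genes with agreeing spots. The median over the 86 measured members was -0.02.

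Ist1, a regulator of ESCRT-III, rose (mean 1.17 ± 0.26, adjusted p = 0.0318), while the ESCRT-III subunit Chmp2a fell. Rab5a, the GTPase of early endosomes, had 1.13, 1.02 and 1.02 (mean 1.06 ± 0.07, adjusted p = 0.0396), and Rab4b, a GTPase of endosomal recycling, had -0.78, -0.88 and -0.71 (mean -0.79 ± 0.09, adjusted p = 0.0491). These were the 2 calls among 35 Rab, Arf, Arl and Rap genes with agreeing spots (5.71%, against 1.07% of all such genes). Dynll1, the light chain shared by dynein and many other complexes, had -2.51 on the dye-reversed array, -1.51 on replicate 2 and -2.02 on replicate 3, a mean of -2.01 ± 0.50 or a 4.04-fold fall (adjusted p = 0.0101), and -0.34 with the dye-reversed array turned. It was the only call among 33 dynein, kinesin and microtubule genes with agreeing spots (3.03%, against 1.07% of all such genes). The median over the 46 measured was 0.02.

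Both calls among splicing factors and heterogeneous nuclear ribonucleoproteins, which shape messenger RNA in the nucleus, were rises. Hnrnpm, a splicing regulator, had 1.29, 1.65 and 1.51, a mean of 1.48 ± 0.18 or a 2.79-fold rise (adjusted p = 0.012), and 0.62 with the dye-reversed array turned. Hnrnpa2b1, which also sorts RNA, had 0.82, 0.79 and 0.97 (mean 0.86 ± 0.10, adjusted p = 0.04). Hnrnpu (mean 0.94, adjusted p = 0.0518) and Srsf5 (mean 0.77, adjusted p = 0.0588) were positive on all 3 arrays and missed the threshold. The 2 calls were 4.44% of the 45 splicing genes with agreeing spots, against 1.07% of all such genes. Of 64 measured splicing genes 22 were positive and 9 negative on all 3 arrays (34.4% and 14.1%, against 15.4% and 15.2% of all named genes). Their median of 0.28 was above the medians on the single arrays, which were 0.10, 0.16 and 0.22, and it was 0.12 with the dye-reversed array turned.

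Growth arrest and glucocorticoid-responsive genes also held rises. Btg1, an anti-proliferative factor, had 1.53, 0.79 and 1.49 (mean 1.27 ± 0.41, adjusted p = 0.0315). Trp53inp1, a p53 target that promotes autophagy and cell death, had 0.85, 1.22 and 1.496 (mean 1.19 ± 0.32, adjusted p = 0.0288). They were the 2 calls among 44 p53 and growth arrest genes with agreeing spots (4.5%, against 1.07% of all such genes). The median over the 59 measured was 0.01, and Bnip2 came next with a mean of 0.94 (adjusted p = 0.0565). Among the 59, 15 were positive and 10 negative on all 3 arrays (25.42% and 16.95%, against 15.4% and 15.2% of all named genes). The lowest mean was -0.68, for Cdkn1a, picked after its values were seen. Tsc22d3, the glucocorticoid-induced leucine zipper, had 1.24, 1.04 and 1.56, a mean of 1.28 ± 0.26 or a 2.43-fold rise (adjusted p = 0.0168), and 0.45 with the dye-reversed array turned. Mt2, a metallothionein that glucocorticoids and metals induce, went the other way with -1.06, -1.19 and -1.65 (mean -1.30 ± 0.31, adjusted p = 0.0221). Tsc22d3 and Mt2 were the only calls among 22 glucocorticoid and circadian genes with agreeing spots (9.09%, against 1.07% of all such genes). Sfr1, a recombination factor, rose (mean 1.11 ± 0.05, adjusted p = 0.0226), and Mgmt, which removes alkyl groups from guanine in DNA, had -0.89, -0.89 and -1.22 (mean -0.998 ± 0.19, adjusted p = 0.0396). Sfr1 and Mgmt were the only calls among 36 DNA repair and recombination genes with agreeing spots (5.56%, against 1.07% of all such genes).

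Further calls had no list in common. Ifi27l2a, an interferon-induced gene, had -1.496, -1.98 and -1.39 (mean -1.62 ± 0.31, adjusted p = 0.0163). Of 57 measured interferon and antigen presentation genes 45 had agreeing spots. Ifi27l2a was the only call among these (2.22%, against 1.07% of all genes with agreeing spots). Tmem88, an inhibitor of Wnt signalling, had a mean of -1.10 (adjusted p = 0.04), and Gng5, a G protein gamma subunit, of -1.16 (adjusted p = 0.0396). Among the rises were Gpr160, an orphan receptor, at 1.57 (adjusted p = 0.0103), Sh3bgrl at 1.37 (0.0163), Apmap at 1.32 (0.0226), the amino acid enzyme Oat at 1.23 (0.0204), the oxidation resistance gene Oxr1 at 1.17 (0.04) and the riboflavin kinase Rfk at 1.13 (0.04). BC005537, a gene named by its clone, had 0.89, 1.45 and 1.42 (adjusted p = 0.0315). Outside the naming rule and picked after their values were seen, the kit ligand gene Kitl (0.85), the growth hormone receptor gene Ghr (1.05) and the splicing regulator Mbnl1 (1.06) rose, and Igfbp7 (-0.81), which encodes a protein secreted by endothelium, and Naca (-1.01), a chaperone of nascent chains at the ribosome, fell.

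Of 16 measured targets of the aryl hydrocarbon receptor 10 had agreeing spots and 0 of these passed, beside 1.07% of all genes with agreeing spots. Among the 16, 4 were positive and 2 negative on all 3 arrays (25% and 12.5%, against 15.4% and 15.2% of all named genes), and the median was -0.02. Cyp1a1, the classic target, had 0.28, -0.15 and -0.15, with spots 1.11 apart on replicate 2. Cyp1b1 had 1.30 on the dye-reversed array, 0.08 on replicate 2 and 0.40 on replicate 3 (mean 0.59 ± 0.64, adjusted p = 0.41), so it was high on 1 array alone. Xdh had -1.54, 0.03 and -0.66 (adjusted p = 0.382). Of 69 antioxidant genes 57 had agreeing spots and 1 of these fell (Mt2, 1.75%). Among the 69, 19 were negative and 7 positive on all 3 arrays (27.5% and 10.1%, against 15.2% and 15.4% of all named genes). The median was -0.07, or 0.01 with the dye-reversed array turned. Gstm1, a glutathione transferase, was negative on all 3 arrays with a mean of -0.70 (adjusted p = 0.0958).

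Of 54 measured genes of endothelial activation 38 had agreeing spots and 0 of these passed, beside 1.07% of all genes with agreeing spots. Among the 54, 13 were negative and 3 positive on all 3 arrays (24.1% and 5.56%, against 15.2% and 15.4% of all named genes), and the median was -0.08. The chemokine Ccl2 had -1.45, -0.48 and -0.69 (adjusted p = 0.132), Cxcl1 had -1.89, -0.42 and -0.45 (adjusted p = 0.208) and Ccl11 had -0.9999, -0.51 and -0.78 (adjusted p = 0.145). All of these were lowest on the dye-reversed array. The adhesion molecule Vcam1 had 0.55, 0.10 and -0.49, and Icam1 was not analysed here. In the stress response list Manf (mean -0.80, adjusted p = 0.0641) and Ppp1r15a (mean -0.87, adjusted p = 0.0728) were negative on all 3 arrays without passing. Of 68 actin cytoskeleton genes 52 had agreeing spots and 0 of these passed, beside the same 1.07%. S100a11 came nearest, with -0.50 on the dye-reversed array against -1.69 and -1.56 on the others (adjusted p = 0.0518), and passed without the dye-reversed array (adjusted p = 0.0272). S100a6 and Gsn had means of -0.80 and -1.04 (adjusted p = 0.0765 and 0.0728). Among members with agreeing spots, no call was made for 62 cell cycle, 43 chromatin (with Nap1l1 at a mean of 0.82, adjusted p = 0.0895), 50 integrin and adhesion (with Ctnna1 at 0.75, adjusted p = 0.0828), 52 ubiquitin and 50 chaperone genes. At a share of 1.07% over all genes with agreeing spots, lists of these sizes would hold few calls or none.

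**Figure D4:**
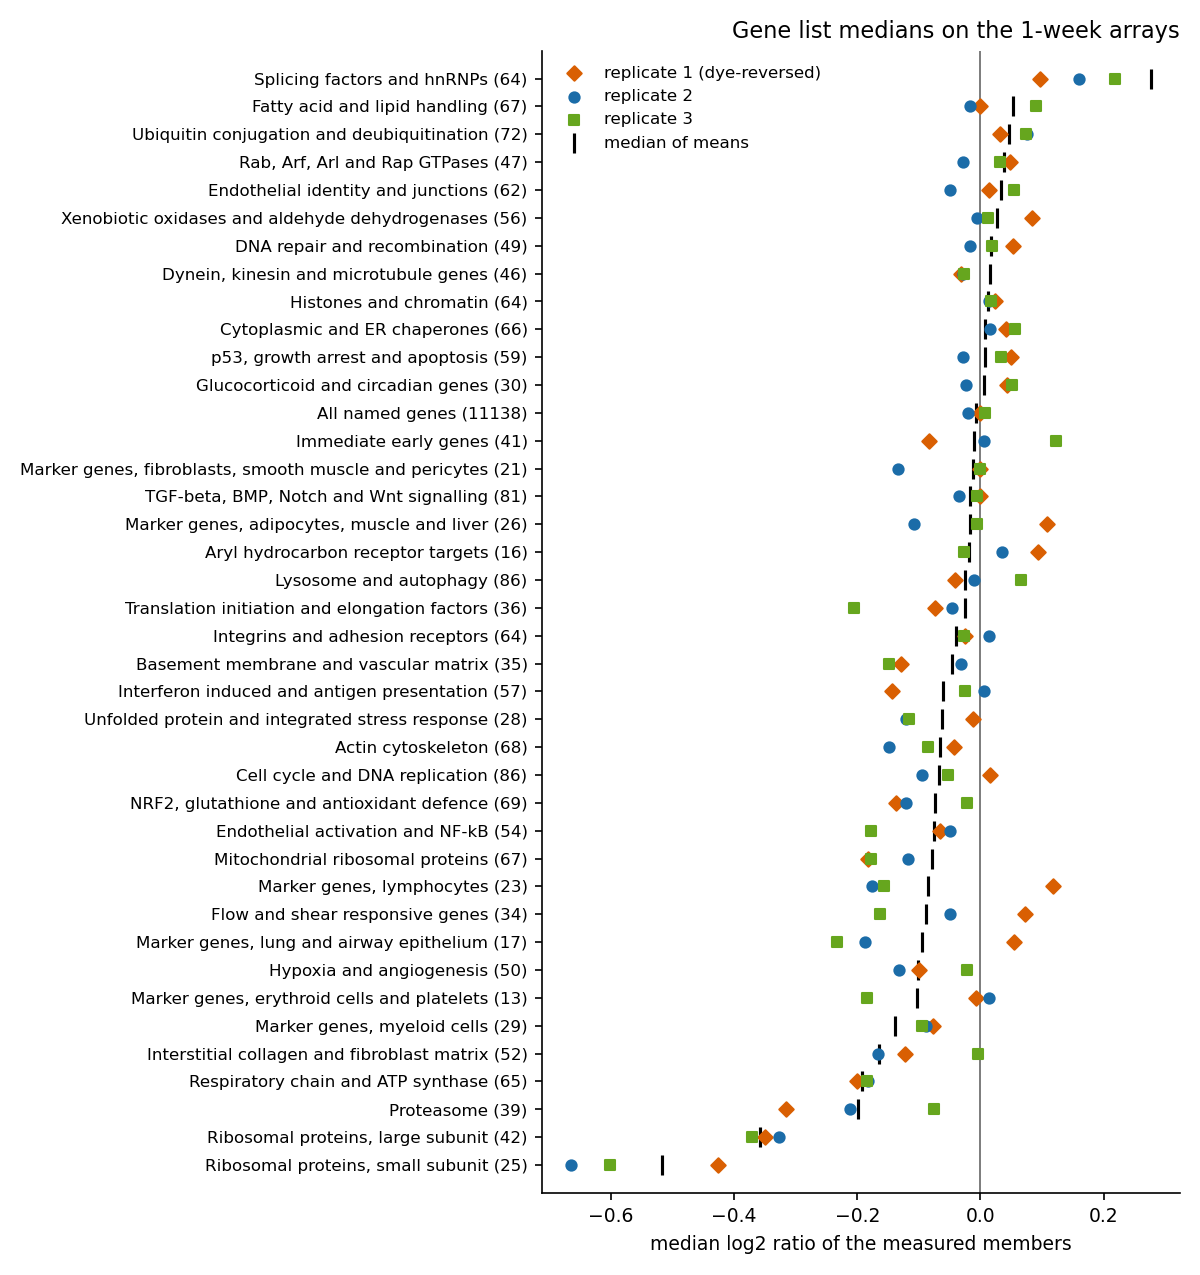
Median log2 ratio (x axis) of the measured members of each gene list on each 1-week array, with the number of measured members in brackets; the black tick is the median of the members' means. The ribosomal lists lie farthest left on all 3 arrays, while most other medians lie within 0.2 of 0.

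Genes with disagreeing spots could not be called but held some of the largest means. Cpe, which encodes the prohormone-processing enzyme carboxypeptidase E, had the largest positive mean of all named genes as deposited, with 2.02 on the dye-reversed array, 2.06 on replicate 2 and 2.56 on replicate 3 (mean 2.22 ± 0.30). Its mean was 0.87 with the dye-reversed array turned, below those of Lce3b (1.42), Yipf4 (1.39) and Tcim (1.16). Its spots differed by 0.01, 0.06 and 1.06, so it fell outside the limit on replicate 3 only, where they read 3.09 and 2.03. In the fit over all features its adjusted p was 0.299. Crip1, a small LIM protein, had -0.79, -1.64 and -1.90, with spots 1.30 apart on the dye-reversed array alone.

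Other large means came from 1 spot. Zfp704 had a mean of 1.52, but on replicate 3 its spots read 8.48 and -0.49, a gap of 8.97. The spots of Casp8ap2 read 7.04 and 0.06 on replicate 3. The spots of Tcim read 1.29 and 6.38 on replicate 2. In each case a single value carried the mean. Negative examples on replicate 2 were Agrn, whose spots read -0.54 and -6.85, and Cyp2f2, a gene of airway club cells, whose spots read -0.79 and -6.75. Both spots of Yipf4 were high on replicate 3, at 2.47 and 6.86, yet the gene had 0.79 and 0.29 on the other arrays.

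The dye-reversed array opposed the others for 24 genes with agreeing spots, counted where both unreversed arrays lay past 0.58 one way and it lay past 0.58 the other way. For 23 of them the unreversed arrays were negative and the dye-reversed array positive, and for 1, Psg21, the reverse held (2.17 and 1.53 against -0.72). Srrm1, a splicing coactivator, had -2.49 and -2.04 on the unreversed arrays and 1.49 on the dye-reversed one. The nuclear receptor Esrrg had -1.55 and -0.89 against 2.20. The glutathione transferase Gstm3 had -1.59 and -1.28 against 1.89, and the receptor tyrosine kinase Erbb4 had -1.55 and -1.504 against 1.30. Among the 23, picked after their values were seen, were also the endothelial genes S1pr1 (-1.08 and -0.65 against 0.72), a receptor for sphingosine-1-phosphate, and Nr2f2 (-0.86 and -0.65 against 1.10), a factor of vein identity. With the dye-reversed array turned these genes hold 1 sign on all 3 arrays, so no mean over the arrays is given for them.

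**Figure D5:**
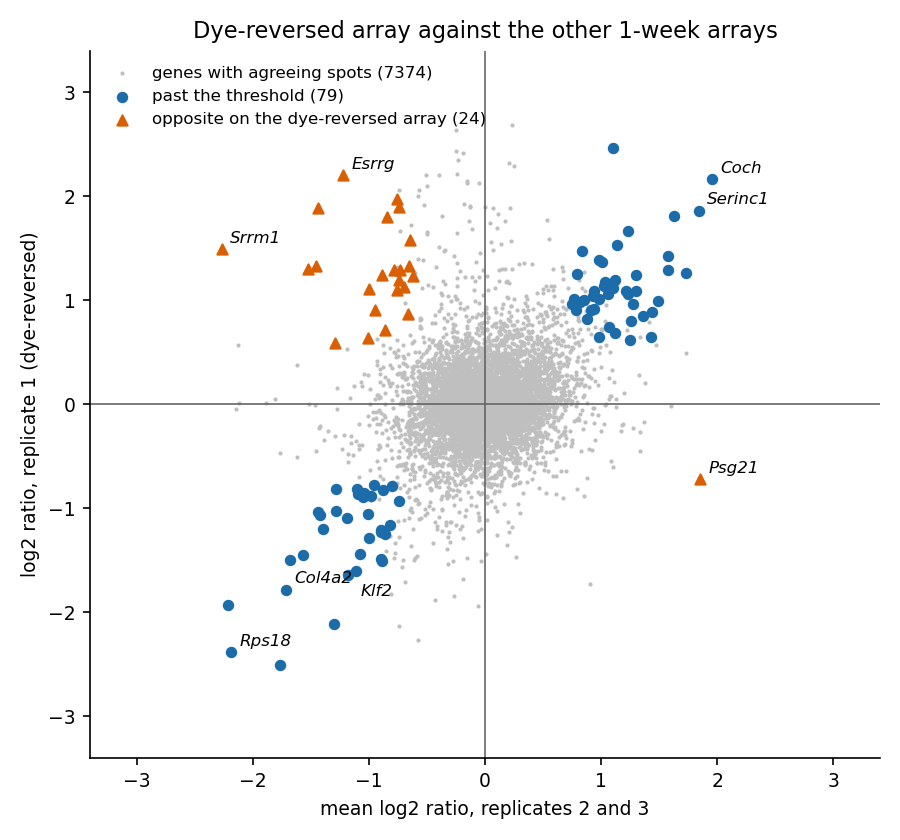
Log2 ratio on the dye-reversed array (y axis) against the mean of 1-week replicates 2 and 3 (x axis) for the 7374 genes with agreeing spots (grey); blue circles are the 79 genes past the threshold and orange triangles the 24 genes with opposite signs past 0.58. All blue points lie in the lower left or upper right, and 23 of 24 triangles lie in the upper left.

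The 6-week arrays that set smoke against 1-week control may share control RNA with the 1-week arrays, so no overlap or correlation between the exposure times is given. For the 23 genes, the dye-reversed 6-week array ranged from 0.53 to 2.21 (median 1.21), its unreversed partner from -2.71 to 0.03 (median -0.52), and the array against 6-week control from -0.82 to 0.44 (median 0.04). On the 1-week arrays the same genes had medians of 1.29 on the dye-reversed array, -0.86 on replicate 2 and -0.72 on replicate 3. The dye-reversed arrays of both exposure times were positive for these genes.

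The called genes compared here were picked after their values were seen. Their means at 1 week and at 6 weeks (2 replicates, signs as deposited) were 2.02 and 2.10 for Coch, 1.69 and 1.68 for Ephx2, 1.15 and 1.53 for Calcrl, 1.05 and 1.24 for Ghr, and 0.83 and 0.89 for Klf4. They were -2.25 and -0.13 for Rps18, -2.12 and -0.40 for Rplp2, -2.01 and 0.09 for Dynll1, -1.34 and 0.35 for Klf2, -1.004 and -0.02 for Col4a1, and 1.57 and -0.18 for Gpr160. Because genes were called on their 1-week values, 6-week means nearer 0 can follow from that choice alone. In the limma fit the difference between the exposure times passed for 0 of 7374 genes (0%), with 499 (6.77%) at an unadjusted p under 0.05. The smallest adjusted p was 0.136, for Rps18. Control RNA that the exposure times may share was not modelled in this fit.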

How the data were processed

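The authors deposited 1 table of log2 ratios of 32448 features on 6 arrays, with log base, centring, direction, scanner, background correction and normalization not given in the sources used here. Raised to the power of 2, at least 99.99% of the deposited log2 values of each 1-week array give a fold or its inverse in whole hundredths (tolerance 0.02 of a hundredth), and each array's median is 3e-07. Values at 0 made up 6.89% of features on the dye-reversed array, 8.01% on replicate 2 and 7.17% on replicate 3. Whether these are measured ratios was not tested, and they were kept in spot means and spot differences. Intensities were not analysed here, so dim spots were not removed. A probe table gave 1 symbol for 24344 features, several for 98 and none for 8006; names were checked against RefSeq (GRCm38.p6), with 24076 matched and 268 not.

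Each array was centred on its median and spots were averaged per symbol. The limma package (3.58.1, in R 4.3.3; lmFit, then eBayes) gave two-sided tests, with a coefficient for each exposure time over 5 replicates (the 6-week dye-swapped pair averaged), 3 residual degrees of freedom and Benjamini-Hochberg adjustment, and was tested on simulated data. Spots within 1 log2 unit on each 1-week array count as agreeing.

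The members and the 39 gene lists (1906 of 2293 entries measured) were chosen with earlier results of these data known. Genes were named by rule: per sign, at most 20 called genes, by size of mean; list members that passed or had the 4 smallest p; per sign, at most 10 genes with disagreeing spots, 10 opposed on the dye-reversed array and 5 with the largest smallest value; and Cyp1a1, Cyp1b1, Klf2, Klf4, Nos3, Hmox1, Icam1 and Vcam1. The text names part of this set and says where a gene falls outside it.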

Additional observations from a re-analysis of the deposited data

How the results depend on the processing

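Each ratio already compares smoke with control on 1 array. The labels give no replicate numbers, so arrays could not be paired with each other. Dim spots, animals and dyes are unknown, and 3 arrays limit the precision. The 79 calls among genes with agreeing spots became 0 with the 1-week dye reversal turned (0 also with spots within 0.5), 35 with the 6-week dye reversal turned, 4 with the 3 1-week arrays alone, 6 or 1 with the dye reversal averaged into replicate 2 or 3, 48 with arrays scaled to one spread (47 shared with the 79), 29 with quantile normalization and 1 without moderation, which is not among the 79. They became 169 at a threshold of 0.1 and 240 with spots kept apart by duplicateCorrelation, all 79 among them in both. Chosen after seeing the data, the 1-week arrays alone with spots within 0.5 gave 35. Leaving out 1 array gave 0 to 27. They were 54 with a dye term (46 shared), 113 with spots within 0.5 (72 shared), 102 with spots agreeing on all 6 arrays (71 shared), 97 with robust moderation and 79 without centring. Except where an alternative's own construction shows it (fewer arrays or genes), the cause was not tested.

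The 0 calls over all features remained 0 in every alternative run but that of named genes only, with 2. The count of called list members, 46, was 0 with the dye reversal turned, 30 with one spread, 21 with quantile normalization and 0 to 15 with 1 array left out (13 of the 15 among the 46). Within 0.5, 3964 genes had agreeing spots and 1455 had 1 sign on all 3 arrays, both chosen after seeing the data.

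Of the 120 gene means recomputed, those that changed sign with the dye reversal turned were Gm4788 (-0.0869), Ccl2 (0.0962), Cxcl1 (0.342), Cyp1b1 (-0.277), Vcam1 (-0.314) and Xdh (0.299). With 1 array left out Vcam1 ranged from -0.194 to 0.326, Nos3 from -0.295 to 0.0535 and Cyp1a1 from -0.149 to 0.0644. Cyp1a1 was 0.0295 with a dye term, 0.0132 with one spread and 0.0218 with quantile normalization. With the dye reversal turned the other 78 called genes kept their sign. As all had 1 sign as deposited, a sign changes only where the turned array outweighs the others together.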

Other observations

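The remaining 14 called genes were not reached by the naming rule and were picked with their values in view. Of these Csnk1g2 (-0.98), which encodes a casein kinase 1, Cd302 (-0.98), a C-type lectin receptor, Aadac (-0.93), an esterase of the endoplasmic reticulum, and Serf2 (-0.90) had negative means. The means were positive for Sucla2 (0.98), a subunit of succinate-CoA ligase in mitochondria, Ssb (0.97), the La protein that binds new RNA polymerase III transcripts, and Stxbp3 (0.82), which regulates membrane fusion. They were also positive for Golga7 (1.08), part of an enzyme that attaches palmitate to Ras proteins, Fhl1 (0.91), a LIM domain protein, Vax2 (0.85), a homeobox factor of the eye, and Rsrp1 (1.11), Syap1 (1.04), Tmem167b (0.99) and Ccdc117 (0.87). All 14 had 1 sign on all 3 arrays and adjusted p-values (limma) between 0.0315 and 0.0477.

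In the 250 bases upstream of the start, GCGTG, the core of the xenobiotic response element, was found on either strand for 20 of the 34 positive called genes with a RefSeq window (58.8%) and for 16 of the 29 negative ones (55.2%). It was found in 39% of the windows of genes with agreeing spots and in 28.2% of all windows. Base composition was not matched between these sets and the difference was not tested.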
